A study of Mus musculus with 4 samples.

Results

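In all, 10 genes of arginine metabolism were followed in macrophages that had or had not been given necrotic fat. They are the arginases Arg1 and Arg2, the inducible nitric oxide synthase Nos2, the arginine importer Slc7a2, the citrulline recycling enzymes Ass1 and Asl, the ornithine-using enzymes Odc1 and Oat, and the polyamine synthases Srm and Sms. The members were chosen by symbol, with earlier results of these data known. All 10 were found among the 17013 genes of the deposited values and passed the filter on low values, as did 12470 genes in all. Primary wild-type (WT) macrophages were grown from the bone marrow of male C57BL/6 mice with M-CSF and seeded on porous inserts. They were treated the next day and harvested 24 h after treatment. Both groups received artificial necrotic bone fluid (aNBF), an extract of freeze-thawed bone that carries danger signals. Abdominal fat was digested with collagenase and then freeze-thawed. The cells met either its middle layer (Con, the fat control medium) or its top layer (Fat, rich in fat), so Con also held soluble material from fat tissue. There were 2 libraries per group, told apart by their titles since all share 1 treatment label, and no source used here says whether replicates came from separate mice, so p-values measure the spread between these libraries, which may be technical.

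Macrophages use arginine in competing ways. NOS2 turns it into nitric oxide and citrulline, and is the classic enzyme of M1 cells that have met interferon-gamma and bacterial products. Arginase turns it into urea and ornithine, and ARG1 is the classic enzyme of M2 cells that have met IL-4. Citrulline can be rebuilt into arginine by ASS1 and then ASL, and ornithine can go to polyamines through ODC1 or towards proline through OAT.

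The libraries held 33573852 and 37881292 reads in Con and 37534565 and 40785872 reads in Fat, recovered from the CPM values (counts per library total, scaled by the authors). Of the 10 macrophage markers listed, Adgre1 was not found by symbol in the deposited values, and the other 9 were detected. Lyz2, the lysozyme of myeloid cells, was at 26819 to 28720 CPM in Con and 20347 to 21516 CPM in Fat, and was not called. Summed, the 9 markers were at 33596 to 35565 CPM in Con and 26747 to 28258 CPM in Fat, sums that were mostly Lyz2. Their median log2 difference, Fat minus Con, was -0.15, and 2 of the 9 were called lower in Fat. Most adipocyte markers were higher in Fat. Of 10 adipocyte markers, Adipoq, Lep and Cidea were at 0 reads in both Con libraries, while Fabp4 and Lpl were high in both groups. The 8 markers other than Fabp4 and Lpl summed to 0.187 to 0.206 CPM in Con and 5.49 to 10.6 CPM in Fat. The Fat sums were mostly Car3, at 7.21 CPM in replicate 1 and 3.39 CPM in replicate 2. The source of this RNA was not tested. With Fabp4 and Lpl the list summed to 7395 to 8600 CPM in Con and 8802 to 8908 CPM in Fat. Of 10 neutrophil and precursor markers listed, Ly6g was not found by symbol, and the other 9 summed to 787 to 870 CPM in Con and 692 to 726 CPM in Fat. The 8 stromal and endothelial markers summed to 626 to 653 CPM in Con and 529 to 675 CPM in Fat. The 6 lymphocyte markers summed to 19.1 to 20.8 CPM in Con and 15.9 to 17.2 CPM in Fat. The part of these cells in the results below was not tested, and in bulk RNA a change in the share of cells and a change per cell cannot be told apart.

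Fat was compared with Con by limma on log2(CPM + 0.1) across all 12470 genes, and a gene was called at a Benjamini-Hochberg adjusted p under 0.05. Arg1 was called higher in Fat and Ass1 lower, and the other 8 members were not called. These 2 calls among 10 members stand beside 9.0% of all genes called, 3.99% higher and 5.0% lower, and with TPM, which is scaled for gene length, 425 genes were called higher and 366 lower in place of 498 and 624. The libraries of Fat and Con did not overlap for 6 of the 10 members, 2 of them higher and 4 lower in Fat, against 55.6% of all genes (29.4% higher and 26.2% lower). The log2 difference, Fat minus Con on the log2(CPM + 0.1) scale, had a median of -0.05 over the members and 0.01 over all genes tested. At an unadjusted limma p under 0.05 stood 24.1% of all genes, in either direction, the share to set beside the unadjusted counts given below. Without limma's mean-variance trend neither Arg1 nor Ass1 was called.

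**Figure D1:**
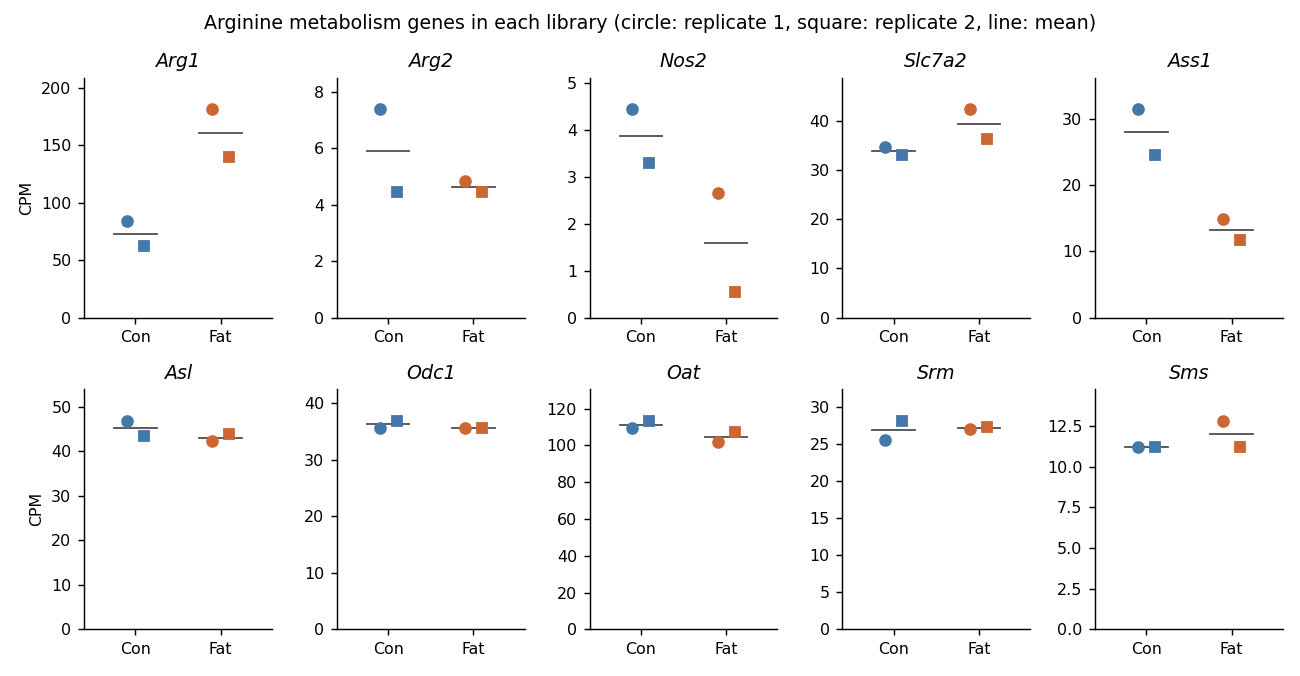
Level of each member in CPM (vertical axes, from 0) in the Con and Fat libraries, where circles are replicate 1, squares are replicate 2 and lines are group means (n = 2). The groups stand clearly apart for Arg1 and Ass1, while Asl, Odc1, Srm and Sms differ little.

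Arg1 encodes the cytosolic arginase. In Con it was at 83.6 (replicate 1) and 62.6 CPM (replicate 2), and in Fat at 181.4 and 139.5 CPM in the same order, which is kept below. Both Fat libraries lay above both Con libraries, and the lowest Fat value was well above the highest Con value. The mean rose from 73.1 ± 14.9 to 160.5 ± 29.7 CPM (SD, n = 2 each), which is 2.20-fold (95% interval 1.71 to 2.83) and a log2 difference of 1.14 (standard error 0.16, adjusted p = 0.0076). The call held with each library left out in turn, when the log2 difference lay between 0.93 and 1.34. None of the 281 stretches of 75 bases taken along its transcript was found in another annotated gene with up to 2 mismatches.

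Arg2, the mitochondrial arginase, did not follow Arg1. It was at 7.40 and 4.45 CPM in Con and at 4.85 and 4.44 CPM in Fat, so the groups overlapped and Con replicate 1 alone stood high. Its log2 difference was -0.30 (95% interval -0.82 to 0.22, adjusted p = 0.465). The value depended on the Con replicate kept, at 0.06 without Con replicate 1 and -0.66 (adjusted p = 0.0369) without Con replicate 2. On the opposite strand the end of Arg2 overlaps Vti1b, which had 2102 to 2823 reads, and since the strand setting of the counting is not given in the sources used here, reads of both genes in that stretch may not be told apart. By TPM, Arg1 made up 91.6% and 93.1% of the arginase transcripts in Con and 97.3% and 96.8% in Fat.

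Nos2, the gene of iNOS, was the scarcest member. In Con it had 151 and 124 reads (4.45 and 3.31 CPM), and in Fat 99 and 22 reads (2.65 and 0.537 CPM). Both Fat libraries were below both Con libraries, but the Fat libraries differed from each other far more than the Con libraries did. The Clopper-Pearson 95% counting intervals of the Fat libraries, 2.16 to 3.23 CPM and 0.336 to 0.812 CPM, did not meet, whereas that of Fat replicate 1 overlapped that of Con replicate 2 (2.75 to 3.94 CPM). Such intervals cover counting error only. The log2 difference was -1.57 (standard error 0.58, 95% interval -2.93 to -0.21), which was not called (adjusted p = 0.151). With a pseudocount of 1 CPM it was -1.03, and edgeR gave -1.31. Without Fat replicate 1 it was -2.63 (adjusted p = 0.000475) and without Fat replicate 2 it was -0.52 (adjusted p = 0.291).

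The library with the least Nos2 also had the lowest levels of interferon-gamma targets. All 10 targets listed, which include the guanylate-binding protein genes Gbp2 and Gbp5 and the chemokine gene Cxcl9, were called lower in Fat, beside 5.0% of all genes. Their median log2 difference was -1.73. All 10 were lower in Fat replicate 2 than in Fat replicate 1, by a median of -0.65 on the log2 scale. All 10 were also lower in Con replicate 2 than in Con replicate 1, by a median of -0.16. Nos2 and Ass1, both known to be induced by interferon-gamma, had the same order of libraries. That order was not particular to such genes, since Lyz2, Mrc1, Chil3 and Il4ra had it too. Within each group, 7 of the 10 members were lower in replicate 2 than in replicate 1. The share of all genes with this order was not counted. The part of interferon-gamma, or of any other interferon, in the values of Nos2 and Ass1 was not tested.

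**Figure D2:**
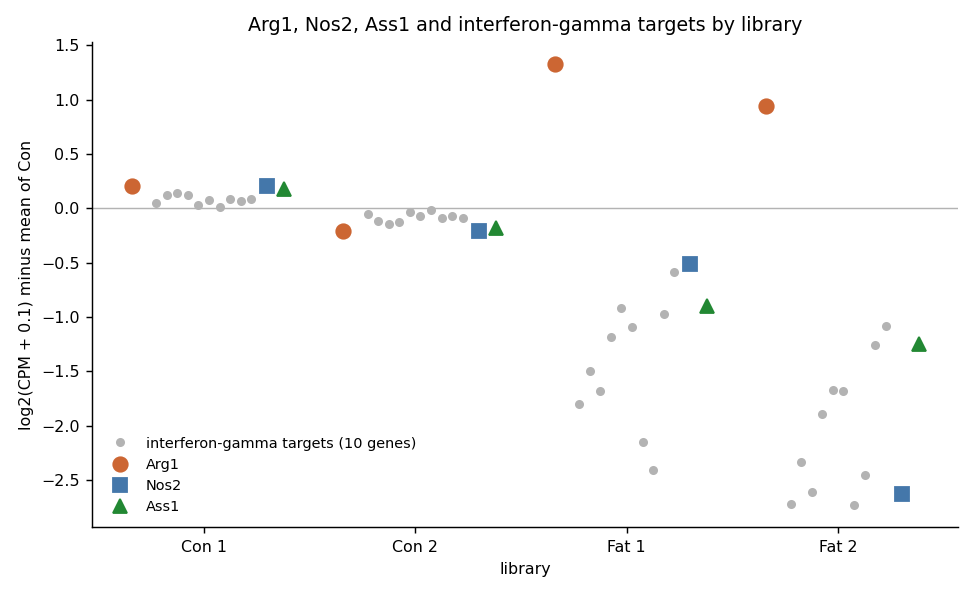
log2(CPM + 0.1) minus the mean of the Con libraries (vertical axis) in each library (horizontal axis) for Arg1, Nos2, Ass1 and 10 interferon-gamma targets (grey). Arg1 is above 0 in both Fat libraries, while Nos2, Ass1 and the targets are below it and lowest in Fat replicate 2.

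Set against each other within a library, Arg1 and Nos2 transcripts were at a TPM ratio of 50.8 and 51.1 in Con and of 184.8 and 702.1 in Fat. The Con libraries nearly coincided and both Fat ratios were higher, by 2.82 on the log2 scale on average (SD 0.01 in Con and 1.36 in Fat, n = 2 each). The counting error of Nos2 in Con, with 151 and 124 reads, is wider than that SD of 0.01, which thus does not measure the spread. The ratio of 702.1 rests on 22 Nos2 reads. An exact two-sided permutation test gave p = 0.333, the smallest value that 2 libraries against 2 can give.

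**Figure D3:**
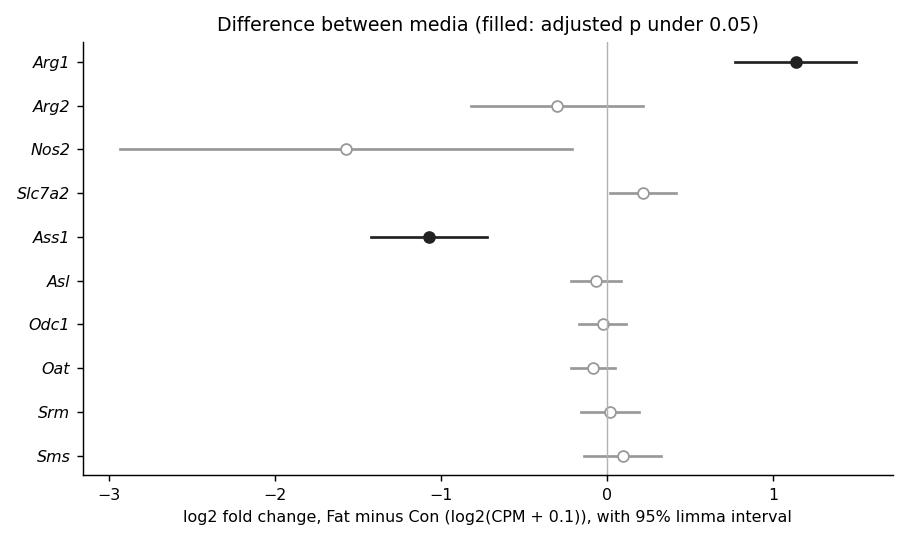
log2 difference of Fat over Con with its 95% interval from limma (horizontal axis) for each of the 10 members, filled where called. Arg1 and Ass1 are called, the interval of Nos2 is the widest, from -2.93 to -0.21, and those of Asl, Odc1, Oat and Srm stay within 0.22 of 0 on either side.

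Slc7a2 encodes CAT2, the transporter that brings arginine into activated macrophages. It was at 34.7 and 33.1 CPM in Con and at 42.5 and 36.4 CPM in Fat. Both Fat libraries were above both Con libraries, but Fat replicate 2 only just. The log2 difference was 0.21 (95% interval 0.02 to 0.41, adjusted p = 0.174), so it was not called.

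Ass1, argininosuccinate synthase, joins citrulline to aspartate and is the rate-limiting step of arginine rebuilding. It was at 31.5 and 24.6 CPM in Con and at 14.9 and 11.7 CPM in Fat, and the groups were far apart. The mean fell from 28.0 ± 4.91 CPM in Con to 13.3 ± 2.29 CPM in Fat (SD, n = 2 each). The log2 difference was -1.07 (standard error 0.15, adjusted p = 0.0077). The call held with each library left out, between -1.25 and -0.89. Asl, argininosuccinate lyase, which takes the next step, was at 46.9 and 43.5 CPM in Con and at 42.3 and 43.8 CPM in Fat, with overlapping groups and a log2 difference of -0.07 (95% interval -0.22 to 0.08, adjusted p = 0.569). The TPM ratio of Ass1 to Asl was 0.630 and 0.529 in Con and 0.330 and 0.250 in Fat, a difference of -1.01 on the log2 scale (exact two-sided permutation p = 0.333, the smallest possible).

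The reads counted on Ass1 were also counted on Gm5424, a processed pseudogene of Ass1 on another chromosome. Ass1 had 1068 and 921 reads in Con and 556 and 478 in Fat, and Gm5424 had 1068 and 921 in Con and 556 and 477 in Fat. The Ass1 values therefore cannot be told apart from those of the pseudogene. Of the 325 stretches of 75 bases along the Ass1 transcript, the length of the reads, 46.8% were identical in Gm5424, and 71.7% had at most 2 mismatches. The sequences shown are a read-length stretch from GENCODE vM21 (build GRCm38) that a read from Ass1 would match in the pseudogene within 1 mismatch. It lies in coding exon 10 of Ass1 at chr2:31498148-31498222 (+ strand) and matches Gm5424 at chr10:62071721-62071795 (+ strand) but for a single base, in capitals. That base is G58C from Ass1 to Gm5424, with positions counted from 1 at the 5′ end of the stretch. A read from this stretch of Ass1 matches Ass1 itself with no mismatch, so that base can set the genes apart. The counting rule for reads that match several places is not given in the sources used here. The reason for the near-equal counts was not tested. Both stretches are named after exon 10 of Ass1, and the name does not give an exon number of Gm5424.
Ass1, exon 10 stretch: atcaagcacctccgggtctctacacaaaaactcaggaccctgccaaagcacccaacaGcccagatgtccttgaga
Gm5424, exon 10 stretch: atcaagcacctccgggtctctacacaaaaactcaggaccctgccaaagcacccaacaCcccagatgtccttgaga
Of the 12088 genes with at least 100 reads in all, 33 had reads exactly equal to those of another gene in every library, a count that leaves out Ass1 for its 1 read of difference. No other member had a row within 1 read of its own in every library.

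The enzymes that use ornithine were not called. Odc1, ornithine decarboxylase, the first step of polyamine synthesis, was at 35.7 and 36.9 CPM in Con and at 35.7 and 35.6 CPM in Fat. The Fat libraries nearly coincided with Con replicate 1, and the log2 difference was -0.03 (95% interval -0.17 to 0.12, adjusted p = 0.831). Oat, ornithine aminotransferase, which leads towards proline and glutamate, was at 109.2 and 113.4 CPM in Con and at 102.0 and 107.5 CPM in Fat. The groups did not overlap, by a small margin, and the log2 difference was -0.09 (95% interval -0.22 to 0.04, adjusted p = 0.400). A change of Odc1 or Oat as large as that of Arg1 lies outside these intervals.

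Srm and Sms make spermidine and spermine. Srm was at 25.7 and 28.2 CPM in Con and at 27.1 and 27.4 CPM in Fat, with a log2 difference of 0.02 (95% interval -0.15 to 0.19, adjusted p = 0.922). Sms was at 11.2 CPM in each Con library and at 12.8 and 11.2 CPM in Fat, with a log2 difference of 0.09 (95% interval -0.14 to 0.33, adjusted p = 0.620). For both genes the groups overlapped. Of the stretches of 75 bases along the transcripts, 59.7% of those of Odc1, 28.3% of those of Sms and 6.32% of those of Srm were also found in other annotated genes, mostly pseudogenes, so reads may have been shared there as well.

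Ranked by mean TPM, Oat (111.9 ± 1.47) and Arg1 (107.4 ± 23.4) led in Con with overlapping libraries (SD, n = 2 each). Asl (64.1), Srm (43.9), Ass1 (37.3) and Odc1 (30.9) followed, and each of these was above the next in both libraries. Slc7a2 (9.35), Arg2 (9.08) and Sms (7.20) were next, with overlapping libraries between neighbours, and Nos2 (2.11) was last. In Fat, Arg1 (240.7 ± 44.7) stood first and above Oat (107.7 ± 3.91) in both libraries, and Ass1 (18.0 ± 3.12) stood below Odc1 (31.0 ± 0.0486). Among all genes, the mean TPM of Arg1 was at the 92.3rd percentile in Con and the 96.9th in Fat, and that of Nos2 at the 36.5th and the 30.0th.

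Around these enzymes, 65 further genes were listed in 7 groups, of which 52 passed the filter. Of these, 4 were called higher and 1 lower in Fat, or 9.62%, close to the 9.0% of all genes. Their median log2 difference was 0.06, and that of all genes tested 0.01.

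Of these 4 genes called higher, 3 belong to polyamine supply and turnover. Of the 13 polyamine supply and turnover genes tested, 3 rose and 0 fell (at an unadjusted limma p under 0.05, 3 and 1, and 3 and 0 by both edgeR and DESeq2 on the recovered reads), beside 3.99% of all genes called higher. The list's median log2 difference was 0.13. Smox, spermine oxidase, which turns spermine back into spermidine, was at 64.2 and 59.9 CPM in Con and at 92.0 and 97.8 CPM in Fat. Both Fat libraries were well above both Con libraries, and the log2 difference was 0.61 (standard error 0.06, adjusted p = 0.0035). Atp13a3, a transporter of the polyamine import system, rose from 183.9 ± 5.43 CPM in Con to 244.7 ± 0.95 CPM in Fat (log2 difference 0.41, adjusted p = 0.0062). Azin1, the antizyme inhibitor that shields ornithine decarboxylase from breakdown, rose from 186.1 ± 6.14 CPM in Con to 235.3 ± 12.3 CPM in Fat (log2 difference 0.34, adjusted p = 0.0174, but 0.0594 without Fat replicate 1). Sat1, the acetyltransferase that starts polyamine breakdown, had a log2 difference of -0.11 (adjusted p = 0.344). Paox, the oxidase that acts after it, had one of -0.67 (adjusted p = 0.099, but 0.0406 without Con replicate 2). Oaz1, the antizyme that marks ornithine decarboxylase for breakdown, was at 36.9 and 41.6 CPM in Con and 39.2 and 57.1 CPM in Fat, high in Fat replicate 2 alone (adjusted p = 0.350, but 0.0099 without Fat replicate 1). Amd1 and Amd2, near-identical genes of S-adenosylmethionine decarboxylase, had the same reads in every library and count as 2 of the 13 genes.

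Among the other genes listed for arginine and related compounds, Gatm was the gene called. Gatm makes guanidinoacetate, the precursor of creatine, from arginine and glycine. It was at 69.1 and 70.6 CPM in Con and at 42.5 and 32.7 CPM in Fat, with the groups far apart, and fell by 0.90 on the log2 scale (standard error 0.11, adjusted p = 0.0055). None of its stretches of 75 bases was found in another gene. The other 6 genes tested in this list were not called. Padi2, a peptidylarginine deiminase, and Ddah2, which degrades methylated arginines, had the next largest log2 differences at 0.28 and 0.50 (adjusted p = 0.207 and 0.205). Nos1 and Nos3, the other nitric oxide synthases, were at most at 0.06 and 0.22 CPM in any library and fell under the filter, so Nos2 was the nitric oxide synthase that could be compared.

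Of 6 genes of tetrahydrobiopterin supply, the cofactor of nitric oxide synthases, 0 were called by limma in either direction (0 higher and 2 lower at an unadjusted p under 0.05, and 0 by edgeR and DESeq2). Gch1, the rate-limiting enzyme, was at 24.9 and 23.0 CPM in Con and at 19.5 and 20.4 CPM in Fat (log2 difference -0.26, adjusted p = 0.0824). Of 8 other carriers of arginine, ornithine and citrulline, 0 were called by limma, 0 at an unadjusted p under 0.05, and 0 by edgeR and DESeq2. Among them Pqlc2, a lysosomal exporter, had a log2 difference of 0.18 (adjusted p = 0.262) and Slc7a1, the constitutive arginine importer CAT1, one of 0.12 (adjusted p = 0.463).

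Of 8 genes of the proline pathway, P4ha1 was called. P4ha1, a collagen prolyl hydroxylase subunit, was at 147.2 and 136.1 CPM in Con and at 185.6 and 188.5 CPM in Fat, and rose by 0.40 on the log2 scale (standard error 0.06, adjusted p = 0.0092). Of the enzymes that make proline itself none was called by limma, with log2 differences of 0.24 for Pycr1, 0.20 for Pycrl and 0.01 for Aldh18a1. Of the 4 genes of the hypusine pathway, through which spermidine modifies eIF5A, 0 were called by limma (0 at an unadjusted p under 0.05 and 0 by edgeR and DESeq2). Eif5a had a log2 difference of 0.11, and Dohh, the hydroxylase, one of 0.28 (adjusted p = 0.376, but 0.0393 without Fat replicate 1). Of the 6 genes of nitric oxide signalling, 0 were called by limma (0 at an unadjusted p under 0.05 and 0 by edgeR and DESeq2). Nos1ap, an adaptor of the neuronal enzyme, and Gucy1b3, a subunit of the nitric oxide receptor, were scarce and had log2 differences of -0.38 and -0.25.

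**Figure D4:**
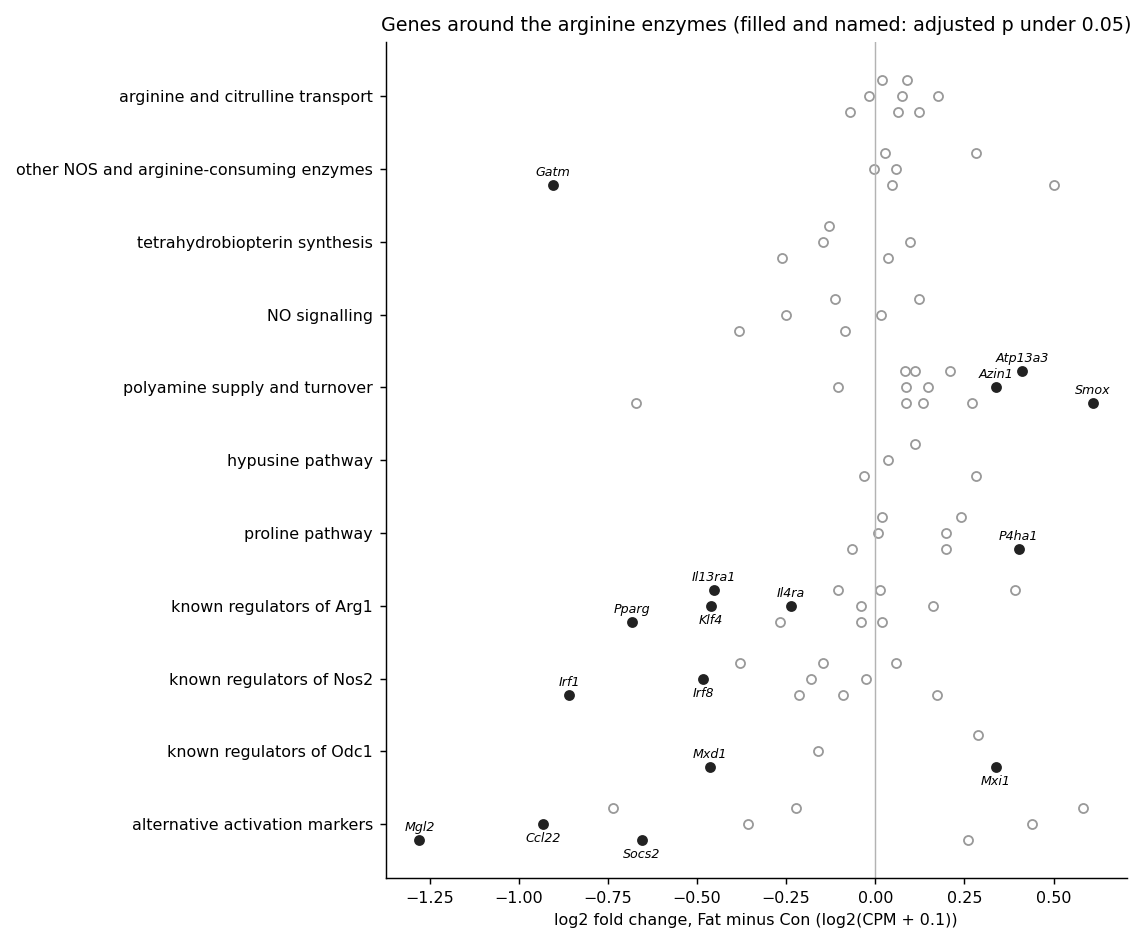
log2 difference of Fat over Con (horizontal axis) for the genes of each list that passed the filter, 1 point per gene shown, filled and named where called. Smox, Atp13a3, Azin1 and P4ha1 are called higher and Gatm lower among the enzymes and carriers, and calls among the regulators and the alternative activation markers are lower but for Mxi1.

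At the RNA level, none of the listed genes known to drive Arg1 was called higher with it in the limma fit described above. The activity of their proteins was not tested. Of 12 listed transcription factors and receptors, 0 were called higher and 4 lower (at an unadjusted limma p under 0.05, 1 and 5, by edgeR 0 and 4, and by DESeq2 0 and 5). Of all genes, 3.99% were called higher and 5.0% lower. Leaving out any 1 library, 1 to 3 were called lower and 0 or 1 higher. Stat6, the factor that carries the IL-4 signal, was at 230.6 and 242.9 CPM in Con and at 246.5 and 233.5 CPM in Fat, with overlapping groups and a log2 difference of 0.02 (95% interval -0.12 to 0.16, adjusted p = 0.882). The IL-4 and IL-13 receptor genes Il4ra and Il13ra1 fell by 0.24 and 0.45 on the log2 scale (adjusted p = 0.0366 and 0.0372). The factors Pparg and Klf4 fell by 0.68 and 0.46 (adjusted p = 0.0064 and 0.0368). Of these 4, Pparg was called with each library left out, and each of the others was lost with at least 2 of the libraries left out. Cebpb was at 36.5 and 36.9 CPM in Con and at 38.3 and 60.7 CPM in Fat, high in Fat replicate 2 alone (adjusted p = 0.244, but 0.0011 without Fat replicate 1).

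Of 11 genes known to drive Nos2, 3 fell and 0 rose (at an unadjusted limma p under 0.05, 7 and 0, and 3 and 0 by edgeR and by DESeq2). Of all genes, 5.0% were called lower, and 24.1% had an unadjusted limma p under 0.05 in either direction. Irf1, an interferon-induced transcription factor, was at 366.9 and 361.8 CPM in Con and at 224.3 and 180.0 CPM in Fat (log2 difference -0.86, adjusted p = 0.0045), and Irf8 fell by 0.48 (adjusted p = 0.0083). For both the Fat libraries lay below the Con libraries. Rela, an NF-kB subunit, had a log2 difference of -0.03 (95% interval -0.15 to 0.10, adjusted p = 0.825). Of the 4 genes of the MYC network that bears on Odc1, Mxi1 rose by 0.34 (adjusted p = 0.0145) and Mxd1 fell by 0.46 (adjusted p = 0.0241, but 0.0863 without Con replicate 1 and 0.0982 without Fat replicate 2). Myc had a log2 difference of 0.29 (adjusted p = 0.0762, but 0.0208 without Con replicate 2).

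No other marker of alternative activation tested was called higher in the limma fit described above. Of the 9 markers tested, 0 rose and 3 fell (at an unadjusted limma p under 0.05, 2 and 6, and 0 and 3 by edgeR and by DESeq2), beside 5.0% of all genes called lower. With each library left out, 0 or 1 was called higher and 1 to 4 lower. Retnla, a classic IL-4 target, was at most at 0.13 CPM in any library and fell under the filter. Chil3, another, was at 53.2 and 45.6 CPM in Con and at 41.5 and 35.7 CPM in Fat (log2 difference -0.36, adjusted p = 0.0709). Mrc1, the mannose receptor, was at 453.3 and 408.6 CPM in Con and at 390.3 and 348.9 CPM in Fat (log2 difference -0.22, adjusted p = 0.134). Ccl22, a chemokine, fell by 0.93 (adjusted p = 0.0035), Socs2, a brake on cytokine signals, by 0.65 (adjusted p = 0.0174, but 0.0537 without Con replicate 1 and 0.0549 without Fat replicate 2) and the lectin gene Mgl2 by 1.28 (adjusted p = 0.037, with no call when any library was left out). Clec10a, another lectin gene, had a log2 difference of 0.44 (adjusted p = 0.0825, but 0.0476 without Con replicate 1 and without Fat replicate 1). Cd163, a scavenger receptor, had a log2 difference of 0.58 (adjusted p = 0.209) and the transcription factor gene Egr2 one of 0.26 (adjusted p = 0.117, but 0.0065 without Con replicate 2). For Clec10a, Cd163 and Egr2 both Fat libraries lay above both Con libraries, and for the other 6 of the 9 both lay below. Among all genes these shares were 29.4% above and 26.2% below.

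The genes with profiles most like that of Arg1, by the distance between mean-centred log2(CPM + 0.1) values over the 4 libraries, were G530011O06Rik, Ear12, Ear3, Ear2 and Rgs11, at distances of 0.07 to 0.18. The Ear genes encode eosinophil-associated ribonucleases, and Ear12 and Ear3 had the same reads in every library. Ear2 was at 10.1 and 7.36 CPM in Con and at 21.5 and 15.05 CPM in Fat. For Nos2 the nearest were Gbp8, Rtp4, Irf7, Slc14a1 and Gm4951, at larger distances of 0.59 to 0.70. Gbp8, Rtp4 and Irf7 are interferon-induced genes, and Rtp4 was at 140.0 and 97.2 CPM in Con and at 73.3 and 30.5 CPM in Fat. With 4 libraries such likeness is a description.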

How the data were processed

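RNA-seq libraries (polyA, TruSeq Stranded mRNA, single reads) (2 Con and 2 Fat) were used, grouped by sample titles. The authors deposited CPM (reads scaled to the library total and by a further factor near 1) and TPM values for 17013 genes. The submitters' processing notes name GRCm39, and aligner, counter, annotation and strand setting are not given in the sources used here. The CPM values gave back whole reads throughout (100% within 0.01 read). One read was worth 0.0244 to 0.0295 CPM.

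The 12470 genes that reached 0.5 CPM in 2 or more libraries were compared with limma 3.58.1 (R 4.3.3) on log2(CPM + 0.1), two-sided, allowing for a mean-variance trend, and p-values were adjusted by Benjamini-Hochberg over all of them. The fits were tested on simulated counts. Levels of different genes were compared by TPM only. Shared sequence was searched with BWA 0.7.19 in GENCODE vM21 transcripts, with up to 2 mismatches. Alternatives used a pseudocount of 1, other filters (none, mean of at least 5 CPM), TPM, median ratio rescaling, a replicate block, no trend, each library left out, and edgeR 4.0.16 and DESeq2 1.42.0 on the recovered reads.

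The members, lists and tests were chosen with earlier results of these data known. The genes named are the members, the list genes that were called or otherwise the 2 with the largest change in each list, and the 5 nearest profiles of Arg1 and Nos2. Gm5424, Vti1b, Amd2 and further list genes given as values were named after their values were seen. Gene lists were compared by counts and medians, with no set test. Some list genes and a sequence are not reported here, and their values enter the counts and medians only.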

Additional observations from a re-analysis of the deposited data

How the results depend on the processing

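With 2 libraries per group the spread rests on few values, and for Odc1, Srm and Sms the counting intervals of all 4 libraries overlapped. The number of genes called was 1122, and 31 without the mean-variance trend, 2520 with the replicate block and 2776 with edgeR and the block. Without the trend, 0 members and 0 genes of the pathway lists were called in either direction, the spread then being shared over genes of all levels. Leaving out each library in turn gave 529 to 1131 genes (666 without Con replicate 1, 529 without Fat replicate 2), 1 member called higher, 1 to 2 lower (Nos2 added without Fat replicate 1 and Arg2 without Con replicate 2), 4 to 5 pathway genes higher and 1 to 2 lower, and placed Arg1 in Con 1st or 2nd of the 10 members by TPM. The Arg1 to Nos2 difference lay between 1.86 and 3.78. The log2 fold changes that changed sign were those of Odc1 (0.0045 with TPM), and, with a library left out, Arg2 (-0.66 to 0.0585), Srm (-0.0506 to 0.0856) and Sms (-0.0041 to 0.19). The other settings kept the direction of each member they gave a value for (Nos2 has none with a mean of at least 5 CPM). Same-numbered libraries share only a number. Their deviations had a correlation of 0.20 across the 12470 genes tested and 0.34 across the 9760 with a mean of at least 5 CPM. With the replicate block, 2 members were called higher (Arg1, and Slc7a2 with adjusted p = 0.0191) and 2 lower (Ass1, and Nos2 with adjusted p = 1.54e-05), both with limma and with edgeR. Among the pathway genes the block gave 8 higher and 4 lower with limma, against 9 and 4 with edgeR. With limma and the block, 2 of the alternative activation markers were called higher and 6 lower. The counts were 1 and 5 for the listed regulators of Arg1, 0 and 6 for those of Nos2, and 2 and 2 for those of Odc1. Among all 12470 genes, that fit called 1278 higher and 1242 lower.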
